A study of Mus musculus with 8 samples.

Results

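Bmp4 and 9 genes of the BMP-SMAD pathway were followed in mouse E14 embryonic stem cells (ESCs) after knockdown (KD) of Sox2, hnRNPK or Cdk9. The set holds 10 of the 55335 genes in the count table, taken by symbol: the ligands Bmp4 and Bmp2, the receptor Bmpr1a, the signal transducer Smad1, the inhibitory SMADs Smad6 and Smad7, and the target genes Id1, Id2, Id3 and Id4. Bmp4 was chosen by its counts, which differed between KD and control libraries in earlier results, so its values are a description with no test, and the other 9 genes were taken for their place in its pathway. All 10 genes passed the low-count filter, which kept 16504 genes.

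E14 is an established mouse ESC line. The cells were grown on gelatin in serum medium with LIF and the inhibitors CHIR99021 and PD0325901, and every group, control included, was infected with a lentiviral shRNA vector and selected with puromycin. The control group carried a scrambled shRNA, and the Sox2-KD, hnRNPK-KD and Cdk9-KD groups carried an shRNA against the named transcript, with 2 poly(A) RNA-seq libraries per group, described as biological duplicates. The sources used here do not say which of the designed hairpins each library received. SOX2 is a transcription factor of the ESC core network, hnRNPK an RNA-binding protein, and CDK9 the kinase of P-TEFb, which releases paused RNA polymerase II.

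BMP ligands are secreted proteins of the TGF-beta family. They bind type I receptors such as BMPR1A together with type II receptors, and the activated receptor phosphorylates SMAD1, SMAD5 and SMAD9, which enter the nucleus with SMAD4. Among the best known targets are the Id genes, whose products lack a DNA-binding domain and hold back bHLH transcription factors, and Smad6 and Smad7, whose products feed back on the receptors. In mouse ESCs, BMP4 is known for sustaining self-renewal together with LIF, and in later development the pathway is used in mesoderm, germ line and trophoblast.

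The 8 libraries held between 16709201 and 17719366 counts. Values are given as CPM, counts scaled to library size with TMM factors, and a gene was differentially expressed (DE) at an edgeR adjusted p under 0.05 and an absolute log2 fold change (log2FC) over 0.6. The Sox2 mRNA was at 412 and 530 CPM in control and at 320 and 284 CPM in Sox2-KD (log2FC -0.64, edgeR adjusted p = 0.0479). That call was lost in 9 of 13 alternatives, among them the omission of any control, Sox2-KD or hnRNPK-KD library, with log2FC from -0.83 to -0.46 and an adjusted p of up to 0.311, and held with DESeq2 (adjusted p = 0.00677). The Cdk9 mRNA was at 109 and 129 CPM in control and at 73.1 and 53.2 CPM in Cdk9-KD (log2FC -0.91, edgeR adjusted p = 0.0985). It passed with DESeq2 (log2FC -0.93, adjusted p = 0.000601) and without Cdk9-KD replicate 1 (log2FC -1.19, edgeR adjusted p = 0.0459). The Hnrnpk mRNA was at 1094 and 1131 CPM in control and at 697 and 1144 CPM in the libraries labelled hnRNPK-KD, called the hnRNPK-labelled libraries here because replicate 2 was not lower than control (log2FC -0.27, edgeR adjusted p = 0.808). All 8 ESC markers were detected in every group, and none of them was DE in the 5 comparisons. There, 0% to 7.33% of all genes were DE, so 0 of 8 is near that share. The markers' median log2FC against control was 0.24 for Cdk9-KD, 0.06 for the hnRNPK-labelled libraries and -0.20 for Sox2-KD, beside 0.02 over all genes. For Sox2-KD against Cdk9-KD it was -0.47, beside -0.02. The markers' mean CPM in Sox2-KD ran from 74.0% of control (Nanog) to 113% (Tfcp2l1), and Tfcp2l1 alone lay above control. Of 7 trophectoderm markers tested, 4 rose in Sox2-KD against control (Krt8, Krt18, Gata3 and Eomes), and of 6 primitive endoderm markers 2 did (Dab2 and Gata6), where 2.63% of all genes rose. Of these, Gata3 and Gata6 passed the low-count filter only through their Sox2-KD counts (43 and 50, and 49 and 68), so the filter favoured their rise. Of the other trophectoderm markers, Cdx2 was at 19.8 and 35.1 CPM in control and 6.10 and 6.22 CPM in Sox2-KD (log2FC -2.15, edgeR adjusted p = 0.0521), and Tfap2c had a log2FC of -0.50 (adjusted p = 0.398). The trophectoderm markers summed to 143 to 149 CPM in control and 238 to 368 CPM in Sox2-KD, and the primitive endoderm markers, of which Sox7 was at 0 in control, to 19.5 to 22.3 CPM and 58.6 to 71.0 CPM. The trophectoderm and primitive endoderm sums were 147 to 173 CPM and 14.5 to 17.8 CPM in the hnRNPK-labelled libraries. In Cdk9-KD they were 142 to 143 CPM and 21.03 to 24.4 CPM. In Cdk9-KD, 1 of the 7 trophectoderm markers rose (Eomes, log2FC 2.39, edgeR adjusted p = 0.0191) and 1 fell (Tfap2c, log2FC -2.04, adjusted p = 0.0416). There, 0.139% of all genes were DE. In the hnRNPK-labelled libraries none of these markers was DE, where 0% of all genes were. The 8 mesoderm markers summed to 16.2 to 35.3 CPM over the 8 libraries, and the 8 fibroblast markers to no more than 6.19 CPM in any library, with Dcn, Fap and Postn at 0 in control.

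The sequences shown first are the SMAD motifs near the transcription starts of the members, because they are where a BMP signal could be read. RefSeq windows of 300 bases (250 before the start and 50 after, GRCm38.p6) were matched for 7 members: Bmp4, Bmpr1a, Smad1, Smad6, Id2, Id3 and Id4. The palindromic SMAD box GTCTAGAC, which reads the same on both strands, was found in 70 of 32851 windows (0.213%), and 1 of them was that of Smad6. The GC-rich SMAD1/5 motif GGCGCC, also a palindrome, was found in 11.9% of the windows and in those of Bmpr1a, Id2 and Id4. The SOX cores ACAATG and ACAAAG, searched on both strands, were in 12.6% and 18.7% of all windows and in 0 of the 7. A match is a match of letters only. The distances below count from the RefSeq start of the window, which can differ from the GENCODE start. By GENCODE, the Id2 and Bmpr1a stretches lie inside their genes (chr12:25093799-25097140 and chr14:34410734-34503341). In the lines below the motif is in capitals and each sequence is on the strand of its gene.
Smad6 (chr9:64022045-64022074, minus strand, motif begins 4 bases before the start and spans it): gccgccaaagtGTCTAGACtggcatatgat
Id2 (chr12:25096307-25096334, minus strand, motif begins 231 bases before): caggccccctgGGCGCCcagcgcacact
Id4 (chr13:48260957-48260984, plus strand, motif begins 148 bases before): tcgggttgcccGGCGCCccgccctcgcc
Bmpr1a (chr14:34502728-34502755, minus strand, motif begins 198 bases before): gcgcgcgcgccGGCGCCtcttgctcgcc

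The hairpins against Sox2 are shown because the only member that was DE against control was so in Sox2-KD. Capitals mark the 7 bases that would pair with bases 2 to 8 of the guide strand, if the strand complementary to the target is the guide.
SOX2-shRNA1: aggagcacccggaTTATAAAt
SOX2-shRNA2: caaagagatacaaGGGAATTg
Over their 21 bases, neither came closer than 7 mismatches to a transcript of a member. The 7 capital bases of SOX2-shRNA1 occurred in transcripts of 5 members, Bmp2, Bmpr1a, Id2, Id3 and Id4, and in those of 32.3% of 16485 genes, while those of SOX2-shRNA2 occurred in 0 members and in 23.3% of genes. Of these 5 members, Id4 and Bmp2 had their lowest mean CPM in Sox2-KD, and Bmpr1a, Id2 and Id3 their highest. For the 4 hairpins against hnRNPK and Cdk9, the fewest mismatches to a member were 5 to 7.

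Bmp4 (chr14:46383520-46390669, minus strand, GRCm38) encodes the ligand that gives the set its name. It was at 17.4 and 27.6 CPM in control, 58.5 and 65.5 CPM in Sox2-KD, 49.2 and 71.5 CPM in the hnRNPK-labelled libraries, and 88.3 and 87.8 CPM in Cdk9-KD. All 6 knockdown libraries lay above both control libraries. The log2FC against control was 1.97 (SE 0.24) in Cdk9-KD, 1.46 (SE 0.24) in Sox2-KD and 1.43 (SE 0.24) in the hnRNPK-labelled libraries, which is 3.92-fold, 2.76-fold and 2.69-fold. These 3 values share the same control libraries. Leaving out control replicate 1 or 2 moved the Cdk9-KD value to 1.64 or 2.31 and the Sox2-KD value to 1.15 or 1.83. The value of the hnRNPK-labelled libraries moved to 1.11 or 1.78. It was also 1.11 without replicate 2 of the hnRNPK-KD label, the library with the higher Bmp4 of its group and no lower Hnrnpk mRNA. In the order of the group means, Cdk9-KD stood 26.0 CPM above Sox2-KD, against a pooled SD of 3.504 CPM. That SD rests on 2 libraries per group, and those of Cdk9-KD differed little (SD 0.316 CPM). In the edgeR fit, the log2FC of Sox2-KD against Cdk9-KD was -0.51 (SE 0.23, 95% interval -1.01 to -0.0022). Like the other values of Bmp4, this interval is a description and was not read as a test. Sox2-KD and the hnRNPK-labelled libraries overlapped and differed by 1.63 CPM, within their pooled SD of 11.7 CPM. In bulk RNA, more cells with Bmp4 mRNA and more of it per cell cannot be told apart.

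**Figure D1:**
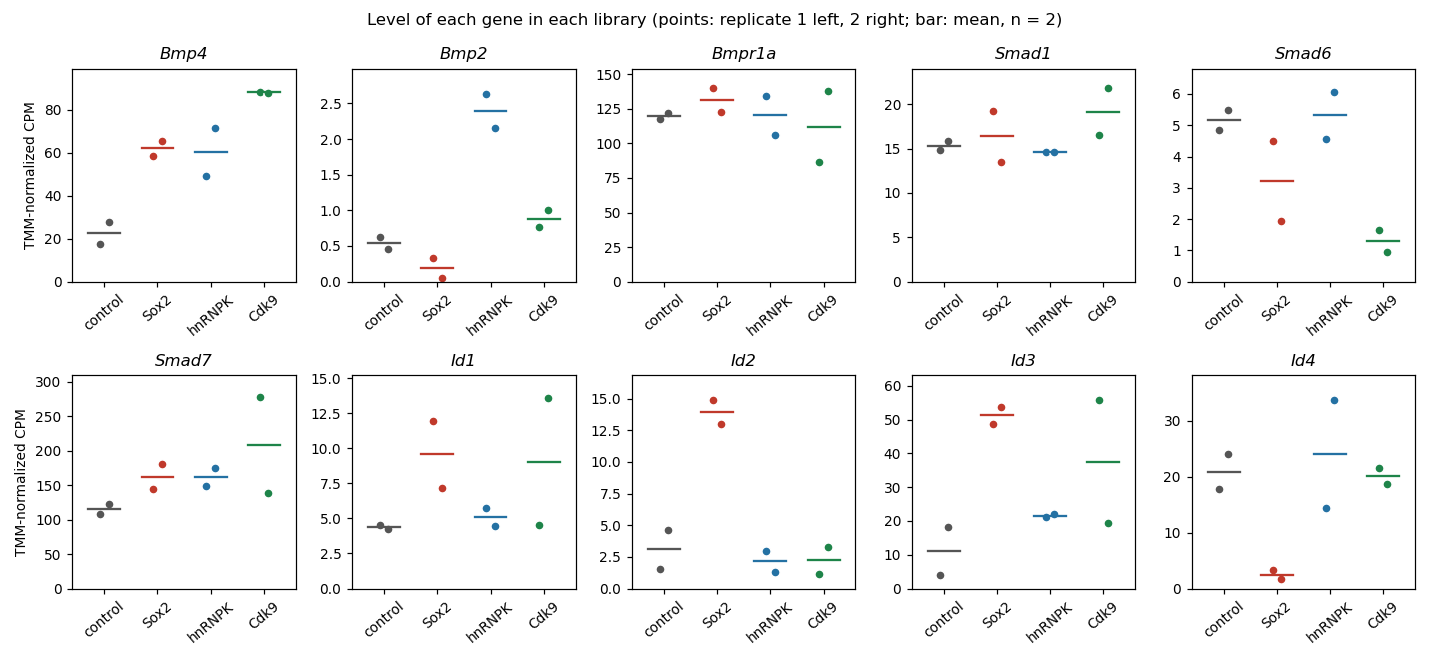
TMM-normalized CPM of each of the 10 genes (y axis, from 0) in the control, Sox2-KD, hnRNPK-KD and Cdk9-KD libraries (x axis); points are libraries and bars the means of 2. Bmp4 was above both control libraries in all 6 knockdown libraries, Id4 at 3.24 and 1.71 CPM in Sox2-KD was below all other libraries, and Id1, Id3 and Smad7 were far apart between the Cdk9-KD replicates.

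Some reads of Bmp4 could come from its neighbours, since the strand setting of the counting is not stated. The antisense gene Gm15222, which overlaps Bmp4 only within introns, had 23 and 16 counts in control, 43 and 68 in Sox2-KD, 27 and 59 in the hnRNPK-labelled libraries and 61 and 53 in Cdk9-KD. It was not DE against control in any knockdown (log2FC 1.49, 1.18 and 1.59, edgeR adjusted p = 0.105, 0.574 and 0.274). Gm15217, which shares exonic sequence with Bmp4, had at most 11 counts in a library, against 309 to 1511 for Bmp4.

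Bmp2 (chr2:133552159-133562885, plus strand), the other ligand of the set, was near the detection limit in most libraries. Its counts were 11 and 8 in control (0.619 and 0.458 CPM), 6 and 1 in Sox2-KD (0.330 and 0.0571 CPM), 13 and 17 in Cdk9-KD (0.759 and 1.01 CPM) and 45 and 37 in the hnRNPK-labelled libraries (2.64 and 2.15 CPM). Bmp2 and Bmp4 therefore had different orders of groups: Bmp2 was highest in the hnRNPK-labelled libraries and lowest in Sox2-KD. Per kilobase of merged exons, mean Bmp4 was at 39.2 CPM in Cdk9-KD and mean Bmp2 at 0.248 CPM. Against control, Bmp2 passed the test in none of the 3 groups, with log2FC 2.14 (SE 0.53, edgeR adjusted p = 0.378) in the hnRNPK-labelled libraries and -1.43 (SE 0.69, adjusted p = 0.293) in Sox2-KD. It was DE between those groups, 11.9-fold lower in Sox2-KD than in the hnRNPK-labelled libraries (log2FC -3.57, SE 0.61, edgeR adjusted p = 0.0108). That call was lost without Sox2-KD replicate 2 (log2FC -2.84) and without replicate 2 of the hnRNPK-KD label (log2FC -3.70), with an adjusted p of up to 0.0895. Without Sox2-KD replicate 1, which leaves 1 count in Sox2-KD, the log2FC was -5.23, and against control it was -3.10 without that library and -0.70 without Sox2-KD replicate 2. Against Cdk9-KD, Bmp2 in Sox2-KD had a log2FC of -2.13 (edgeR adjusted p = 0.0783).

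The receptor and the signal transducer differed little between groups. Bmpr1a, the type I receptor, was at 118 and 122 CPM in control, 140 and 122 CPM in Sox2-KD, 135 and 106 CPM in the hnRNPK-labelled libraries and 86.8 and 138 CPM in Cdk9-KD. The groups overlapped apart from Sox2-KD, which lay just above control, and the 95% intervals of the log2FC against control were -0.33 to 0.59 in Sox2-KD, -0.46 to 0.47 in the hnRNPK-labelled libraries and -0.56 to 0.37 in Cdk9-KD. Smad1, which carries the signal to the nucleus, was at 14.8 and 15.8 CPM in control and between 13.5 and 21.8 CPM in the 6 knockdown libraries. Its log2FC was 0.10 in Sox2-KD (95% interval -0.41 to 0.61), -0.07 in the hnRNPK-labelled libraries (-0.58 to 0.45) and 0.32 in Cdk9-KD (-0.19 to 0.84). Neither gene was DE in any of the 5 comparisons (edgeR adjusted p of 0.598 or more for Bmpr1a and of 0.643 or more for Smad1). The intervals leave room for changes of about the threshold size in each direction.

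The inhibitory SMADs did not follow each other. Smad6 (chr9:63953076-64022059, minus strand), whose product competes with the receptor-activated SMADs, was at 4.84 and 5.50 CPM in control, 4.57 and 6.05 CPM in the hnRNPK-labelled libraries, 4.51 and 1.94 CPM in Sox2-KD and 1.64 and 0.946 CPM in Cdk9-KD, the last from 28 and 16 counts. Both Cdk9-KD libraries lay below the other 6. The log2FC of Smad6 in Cdk9-KD was -1.995 (SE 0.46, 95% interval -3.01 to -0.98), 3.99-fold lower, with an unadjusted p of 0.00121 that did not pass over all genes (edgeR adjusted p = 0.160). With DESeq2 it did pass (log2FC -2.02, adjusted p = 0.00993). In Sox2-KD its log2FC was -0.68 (SE 0.42, edgeR adjusted p = 0.428), -0.20 without replicate 2 and -1.42 without replicate 1. Smad7, which directs ubiquitin ligases to the receptors, was at 109 and 123 CPM in control, 144 and 180 CPM in Sox2-KD, 149 and 175 CPM in the hnRNPK-labelled libraries and 277 and 138 CPM in Cdk9-KD. All 6 knockdown libraries lay above control, and none of the 3 differences passed the test (log2FC 0.48, 0.49 and 0.84, edgeR adjusted p = 0.368, 0.708 and 0.317). The Cdk9-KD value rested on replicate 1, since it was 0.22 without that library and 1.26 without replicate 2.

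**Figure D2:**
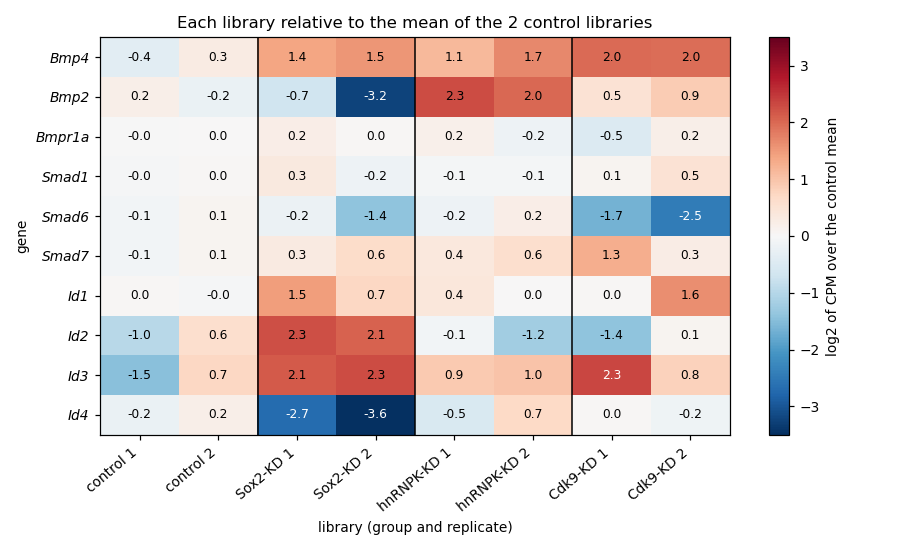
Colour and number give the log2 of each library's CPM over the mean of the 2 control libraries (x axis, 8 libraries by group; y axis, the 10 genes). Bmp4 was at 1.1 to 2.0 in the 6 knockdown libraries, Id4 at -2.7 and -3.6 in Sox2-KD, and Smad6 at -1.7 and -2.5 in Cdk9-KD.

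Of the 4 Id genes, Id4 was DE in Sox2-KD against control, and it was lower, while the log2FC of the other 3 was above 0 and did not pass. Id4 (chr13:48261228-48266026, plus strand) was at 17.9 and 24.003 CPM in control, 14.4 and 33.7 CPM in the hnRNPK-labelled libraries, 21.5 and 18.7 CPM in Cdk9-KD and 3.24 and 1.71 CPM in Sox2-KD, where 59 and 30 counts were left of 317 and 419 in control. The Sox2-KD libraries lay below all 6 others, which overlapped. Id4 fell 8.41-fold against control (log2FC -3.07, SE 0.42, edgeR adjusted p = 0.00497), 8.08-fold against Cdk9-KD (log2FC -3.02, adjusted p = 0.00299) and 9.67-fold against the hnRNPK-labelled libraries (log2FC -3.27, adjusted p = 0.00399). It passed in each of these comparisons under all 13 alternatives, with log2FC against control from -3.62 to -2.69 and an adjusted p of at most 0.0463. In Cdk9-KD and in the hnRNPK-labelled libraries its log2FC against control was -0.06 and 0.20 (edgeR adjusted p = 0.976 and 0.948). The genes that overlap Id4, A330033J07Rik and Gm49291, had at most 2 counts in a library.

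Id2 (chr12:25093799-25097140, minus strand) had the opposite pattern. It was at 1.58 and 4.64 CPM in control, 2.93 and 1.34 CPM in the hnRNPK-labelled libraries, 1.17 and 3.31 CPM in Cdk9-KD and 14.9 and 12.95 CPM in Sox2-KD. The Sox2-KD libraries lay above all 6 others. Id2 was 6.20-fold higher in Sox2-KD than in Cdk9-KD (log2FC 2.63, SE 0.57, edgeR adjusted p = 0.0208) and 6.51-fold higher than in the hnRNPK-labelled libraries (log2FC 2.702, SE 0.58, adjusted p = 0.0253). Both calls were lost without Sox2-KD replicate 1 (log2FC 2.52 and 2.59) and without Sox2-KD replicate 2 (2.73 and 2.80), the first also without Cdk9-KD replicate 1 (2.09, adjusted p up to 0.0906) and the second also without replicate 2 of the hnRNPK-KD label (2.26, adjusted p up to 0.168). Against control its log2FC of 2.16 (SE 0.56) missed the threshold (edgeR adjusted p = 0.0550), passed with DESeq2 (adjusted p = 0.00159) and passed with only the 4 libraries compared (adjusted p = 0.0334). It also passed without any single hnRNPK-KD or Cdk9-KD library (adjusted p = 0.0378 to 0.0464), and did not without any single control or Sox2-KD library, where the log2FC was 1.57 to 3.13 and the adjusted p 0.0681 to 0.275. The 2 control libraries differed 2.94-fold in Id2.

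Id3 was at 3.998 and 18.2 CPM in control, a 4.56-fold difference between replicates. It was at 48.8 and 53.8 CPM in Sox2-KD, 21.05 and 22.0 CPM in the hnRNPK-labelled libraries and 55.8 and 19.4 CPM in Cdk9-KD. All 6 knockdown libraries lay above both control libraries. None of the 3 differences passed the test, with log2FC 2.21 (SE 0.58, edgeR adjusted p = 0.0596) in Sox2-KD, 1.76 (SE 0.58, adjusted p = 0.329) in Cdk9-KD and 0.96 (SE 0.57, adjusted p = 0.751) in the hnRNPK-labelled libraries. The control library used decided the size: in Sox2-KD the log2FC was 3.67 and passed without control replicate 2, and was 1.48 without control replicate 1. The Sox2-KD difference also passed without either Cdk9-KD library (log2FC 2.19 and 2.20, edgeR adjusted p = 0.0373 and 0.0356). Id1 was at 4.505 and 4.24 CPM in control, 11.98 and 7.19 CPM in Sox2-KD, 5.75 and 4.42 CPM in the hnRNPK-labelled libraries and 4.498 and 13.6 CPM in Cdk9-KD. Only the Sox2-KD libraries were both above control, and the difference did not pass (log2FC 1.13, SE 0.46, edgeR adjusted p = 0.208). In Cdk9-KD replicate 1 had the highest Id3 of all libraries and an Id1 level like control, and replicate 2 the highest Id1. The log2FC of Id1 in Cdk9-KD was accordingly 1.60 without replicate 1 and 0.04 without replicate 2.

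Per kilobase of merged exons, so that the 4 genes can be compared, the summed Id level was 11.4 and 22.0 CPM in control, 21.7 and 25.4 CPM in the hnRNPK-labelled libraries, 41.1 and 28.8 CPM in Cdk9-KD and 44.6 and 42.0 CPM in Sox2-KD. Id4 made up 40.7% and 28.4% of that sum in control and 1.89% and 1.06% in Sox2-KD. Id3 made up 19.6% and 46.3% in control, 61.2% and 71.5% in Sox2-KD and 75.8% and 37.6% in Cdk9-KD. The Id2 share was 13.7% and 12.7% in Sox2-KD and at most 8.66% in the other 6 libraries. These shares have no test.

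**Figure D3:**
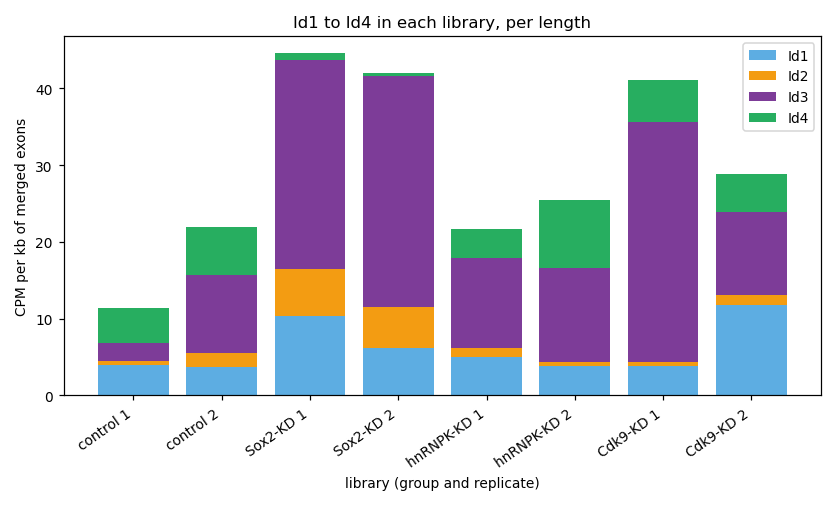
Stacked bars give the CPM per kilobase of merged exons of Id1, Id2, Id3 and Id4 (y axis, from 0) in each of the 8 libraries (x axis). The Id4 segment, 40.7% and 28.4% of the bar in control, was 1.89% and 1.06% in Sox2-KD, whose bars were 44.6 and 42.0 CPM high.

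Of the 9 members other than Bmp4, 1 (Id4) was DE in Sox2-KD against control, where 4.32% of all genes tested were. At an unadjusted p under 0.05 there were 4 (Id1, Id2, Id3 and Id4) and 3182 genes in all, and DESeq2 called 2 (Id2 and Id4) and 1029 genes. In Cdk9-KD against control edgeR called 0 of the 9, where 0.139% of all genes were DE. At an unadjusted p under 0.05 there were 4 (Id1, Id3, Smad6 and Smad7) and 1720 genes in all, and DESeq2 called 1 (Smad6) and 222 genes. In the hnRNPK-labelled libraries edgeR called 0 of the 9 and 0% of all genes. There, 1 member (Bmp2) and 1325 genes in all had an unadjusted p under 0.05, and DESeq2 called 0 members and 83 genes. Sox2-KD against Cdk9-KD gave 2 members (Id2 higher, Id4 lower) beside 7.33% of all genes. Sox2-KD against the hnRNPK-labelled libraries gave 3 (Id2 higher, Bmp2 and Id4 lower) beside 5.9%. Counting members whose libraries lay on 1 side of both control libraries gave 8 of 9 in Sox2-KD (53.3% of all genes), 5 of 9 in Cdk9-KD (39.2%) and 4 of 9 in the hnRNPK-labelled libraries (39.1%). The sums of trophectoderm and primitive endoderm markers given above were highest in the Sox2-KD libraries, where Id4 was lowest and Id2 highest. Most of their rise there lay in Krt8, Krt18 and Dab2. The part of these markers in the differences of Id4 and Id2, or of the other pathway genes described next, was not tested.

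**Figure D4:**
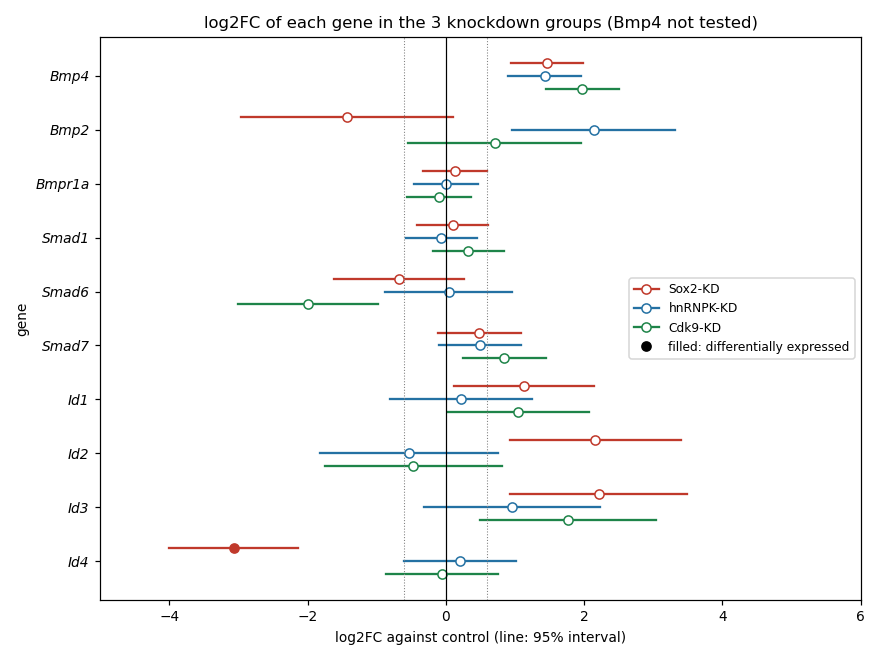
Points give the log2FC against control (x axis) of each of the 10 genes (y axis) for the 3 knockdown groups, with 95% intervals as lines; dotted lines mark 0.6 in each direction, and Bmp4 was not tested. The filled point, Id4 in Sox2-KD at -3.07, is the member that was DE against control.

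Further genes of the pathway were taken from 5 lists of 56 genes, of which 35 were tested. In Sox2-KD, 4 of the 35 rose (2.63% of all genes did) and 1 fell (1.69%). Gata3, 1 of the 4, passed the low-count filter only through its Sox2-KD counts (43 and 50, against 2 to 6 in the other libraries). Its place among the genes that rose was therefore partly set by the filter. The median log2FC was -0.37 for the 5 ligands tested, -0.07 for the 8 receptors and co-receptors, 0.11 for the 9 SMADs and regulators, -0.24 for the 6 antagonists and 0.41 for the 7 other targets, beside 0.02 over all genes. No receptor and no SMAD gene of these lists was DE in any of the 5 comparisons, in which edgeR's adjusted p was used. In these, 0% to 7.33% of all genes were DE, so 0 among the 8 and 9 tested is near that share.

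The ligands Bmp8a and Bmp8b, closely related paralogs whose shared reads may have been split in counting, both rose. Bmp8a was at 2.82 and 2.29 CPM in control and 10.4 and 7.82 CPM in Sox2-KD (log2FC 1.83, SE 0.33, edgeR adjusted p = 0.0137). Bmp8b was at 1.58 and 1.15 CPM in control and 4.62 and 6.45 CPM in Sox2-KD (log2FC 2.02, SE 0.46, adjusted p = 0.0370). In Cdk9-KD their log2FC was -0.03 and 0.30 (edgeR adjusted p = 0.988 and 0.893). In the hnRNPK-labelled libraries Bmp8a was at 5.10 and 4.25 CPM, both above control (log2FC 0.87, unadjusted p = 0.0233, edgeR adjusted p = 0.546), and Bmp8b at 1.35 and 0.466 CPM (log2FC -0.58, adjusted p = 0.851). The GATA factors among the other targets also rose. Gata3, a trophectoderm regulator that is on the trophectoderm marker list too, had 5 and 3 counts in control and 43 and 50 in Sox2-KD (log2FC 3.48, SE 0.58, edgeR adjusted p = 0.0103). Since Gata3 passed the low-count filter only through those Sox2-KD counts, its adjusted p carries that selection and is no independent support. Gata2, a factor of trophoblast and blood lineages, was at 4.96 and 1.78 CPM in control and 11.3 and 13.2 CPM in Sox2-KD (log2FC 1.86, SE 0.44, adjusted p = 0.0404), and this call was lost without the low-count filter (adjusted p = 0.0512).

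Fstl1, a secreted follistatin-like protein that can bind BMP ligands, was the gene of these lists that fell. It was at 219 and 192 CPM in control, 192 and 250 CPM in the hnRNPK-labelled libraries, 215 and 289 CPM in Cdk9-KD and 74.9 and 34.1 CPM in Sox2-KD. The Sox2-KD libraries lay below all others (log2FC against control -1.92, SE 0.31, edgeR adjusted p = 0.00979), and the call held under all 13 alternatives. Of the 5 genes called, Fstl1 alone kept its call without control replicate 2, and 2 genes did without control replicate 1 (Fstl1 and Gata2), without Sox2-KD replicate 1 (Fstl1 and Gata3) and without Sox2-KD replicate 2 (Fstl1 and Bmp8a).

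In Cdk9-KD and in the hnRNPK-labelled libraries, edgeR called 0 of the 35 genes against control, beside 0.139% and 0% of all genes. DESeq2 called 2 in Cdk9-KD, Dusp9 and Tbx3, beside 222 of all 16504 genes. In the other group it called 0, beside 83 of all genes. Dusp9, a MAP kinase phosphatase, was at 46.0 and 21.4 CPM in control, 52.0 and 37.3 CPM in Sox2-KD and 13.8 and 10.7 CPM in Cdk9-KD. Tbx3, a T-box factor of naive ESCs, was at 256 and 321 CPM in control, 227 and 308 CPM in Sox2-KD and 544 and 420 CPM in Cdk9-KD. Both were DE between Sox2-KD and Cdk9-KD (log2FC 1.87 and -0.85, edgeR adjusted p = 0.0112 and 0.0256), and both were chosen for naming after their values were seen. In that comparison 5 of the 35 genes were higher in Sox2-KD and 3 lower, where 7.33% of all genes were DE. Against the hnRNPK-labelled libraries 2 of the 35 were higher in Sox2-KD and 2 lower, where 5.9% of all genes were DE.

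**Figure D5:**
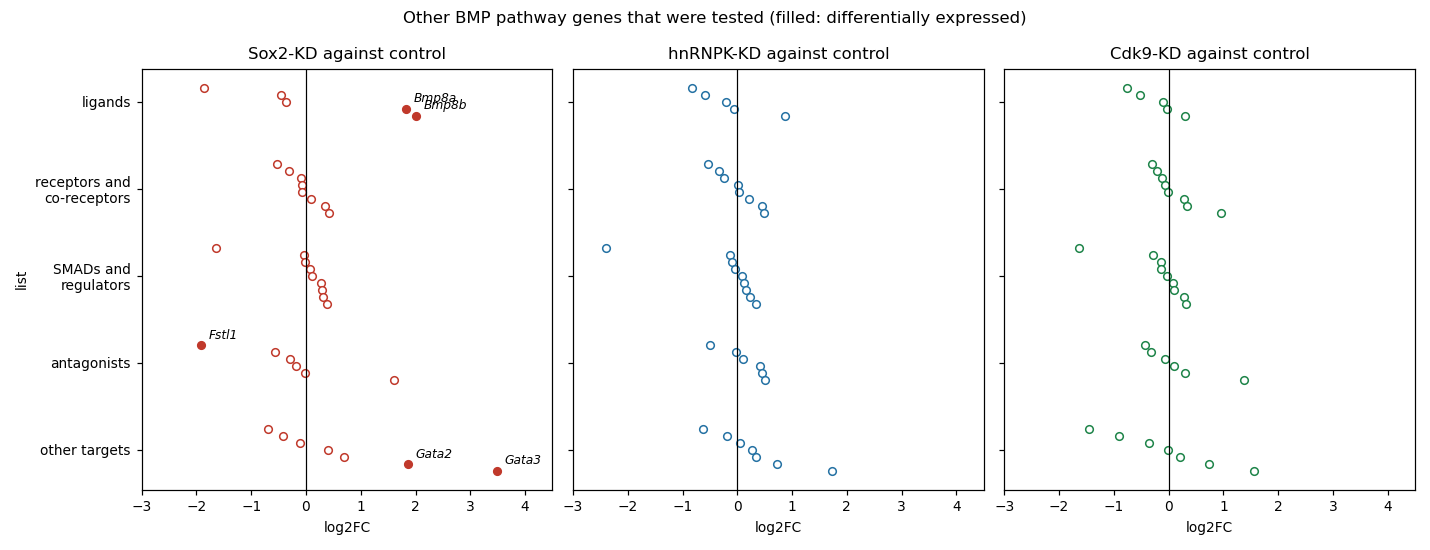
Each point is 1 of the other 35 pathway genes tested, with its log2FC against control on the x axis and its list on the y axis, with 1 panel for each knockdown group. Filled points are DE: Bmp8a, Bmp8b, Gata2 and Gata3 above and Fstl1 below 0 in Sox2-KD, and none in the other panels.

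Across the 8 libraries, the genes whose log2 CPM was most like that of Bmp4, among 12522 genes with an average log2 CPM over 1, were Vegfd, Vegfc, Sugp1, Rac1 and Zfp672. Their Pearson correlations with Bmp4 were 0.97, 0.97, 0.97, 0.96 and 0.96 and their Spearman correlations 1, 0.86, 0.95, 0.88 and 0.86. Vegfc, a lymphatic growth factor, was at 15.6 and 18.9 CPM in control, 22.7 and 25.1 CPM in Sox2-KD, 25.8 and 25.5 CPM in the hnRNPK-labelled libraries and 29.7 and 29.0 CPM in Cdk9-KD. Rac1, a small GTPase, was at 114 and 134 CPM in control and between 151 and 198 CPM in the 6 knockdown libraries. Of the members, Id3 had a Pearson correlation of 0.78 with Bmp4 (place 308 of 12522) and Smad7 of 0.73 (place 449), while Id1 was at 0.45, Smad1 at 0.35, Bmp2 at 0.10, Id2 at 0.07, Id4 at -0.14, Bmpr1a at -0.18 and Smad6 at -0.61. The 8 points fall in 4 groups that share libraries with every comparison above, so these values describe the libraries and have no test.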

How the data were processed

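RNA-seq was performed on 8 libraries of E14 ESCs, 2 each of control, Sox2-KD, hnRNPK-KD and Cdk9-KD. The authors trimmed reads with Trimmomatic, aligned them with STAR (2.7.9a per the labels) against mm10 with the GENCODE vM23 annotation, and deposited unnormalized read counts of each gene from featureCounts 2.0.1. The strand setting and the handling of shared reads are not given in the sources used here. Of 55335 rows, 55154 had a symbol in GENCODE vM21 and 181 did not. Library totals were 16709201 to 17719366 counts, and p-values weigh a difference between groups against the spread between libraries. Replicates of a group differed by more than counting noise (chi-square per gene 16.4 to 28.9).

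The filter filterByExpr (a count of 10, a total of 15) kept 16504 genes. They were scaled by TMM and tested with the quasi-likelihood test of edgeR 4.0.16 (R 4.3.3), with a group term over all 8 libraries and adjustment by Benjamini and Hochberg over all genes tested. As in the study, DE meant an absolute log2FC above 0.6 at an adjusted p below 0.05. The biological coefficient of variation was 0.186. The script was tested on simulated data. Correlations used log2 CPM with a prior count of 2. Figures used Python 3.11.15 and matplotlib 3.10.9.

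All 10 members were named in every comparison, with pathway genes of the lists that were DE against control (at most 10), the 5 genes most like Bmp4 and the targeted genes. Members and lists were chosen with earlier results of these data known. The alternatives were DESeq2 1.42.0, its size factors in edgeR, no filter, only the 4 libraries compared, the replicate number as a block and leaving out each library.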

Additional observations from a re-analysis of the deposited data

How the results depend on the processing

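Leaving out 1 library moved the counts as follows. The count of DE genes in Sox2-KD against control, 713, was then 144 to 840, and that of members other than Bmp4, 1, was 1 to 3. The 23 genes of Cdk9-KD against control became 0 to 33, the 0 of the hnRNPK-labelled libraries 0 to 1, the 1210 of Sox2-KD against Cdk9-KD 337 to 1286 (members 1 to 2) and the 974 of Sox2-KD against the hnRNPK-labelled libraries 90 to 1100 (members 1 to 3). The count of other pathway genes in Sox2-KD, 5, became 1 to 5, and 4 without the filter, when Gata2 was lost. Its alternatives were run after the data were seen. With DESeq2 the counts were 2 members in Sox2-KD, 222 genes, 1 member and 2 pathway genes in Cdk9-KD and 83 genes in the hnRNPK-labelled libraries. Only the 4 libraries compared gave 2 members in Sox2-KD, and no filter gave 1 gene in the hnRNPK-labelled libraries. DESeq2 called 1029 genes in Sox2-KD, 1433 against Cdk9-KD and 1275 against the hnRNPK-labelled libraries.

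Replicate numbers did not pair the libraries: same-numbered deviations correlated between -0.22 and 0.21. With the replicate block the Cdk9-KD count was 15 and Sox2 itself had a log2FC of -0.64 (edgeR adjusted p = 0.0669), and no member's call changed.

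Signs turned only for log2FC that were not DE, or, for Bmp4, not tested. Bmpr1a in the hnRNPK-labelled libraries was -0.0063 with DESeq2 and with its size factors, -0.0021 without a filter and -0.016 with 4 libraries, and Smad7 in Sox2-KD against those libraries was 0.0015 with DESeq2 and 0.0014 with its size factors. Leaving out 1 library gave the following ranges. Against control they were -0.19 to 0.33 for Smad1 in Sox2-KD, -0.47 to 0.17 for Bmpr1a, -1.40 to 0.48 for Id2 and -0.29 to 0.14 for Id4 in Cdk9-KD, and -0.19 to 0.14 for Bmpr1a, -0.20 to 0.22 for Smad6, -1.22 to 0.42 for Id2, -0.56 to 0.68 for Id4 and -0.70 to 0.031 for Hnrnpk in the hnRNPK-labelled libraries. For Sox2-KD against Cdk9-KD they were -0.049 to 0.59 for Bmpr1a, -0.51 to 0.0087 for Smad1, -0.79 to 0.25 for Smad7, -0.48 to 1.082 for Id1 and -0.13 to 1.42 for Id3. For Sox2-KD against the hnRNPK-labelled libraries they were -0.21 to 0.34 for Bmp4, -0.026 to 0.30 for Bmpr1a, -0.12 to 0.40 for Smad1 and -0.18 to 0.14 for Smad7. In all, 800 values were classed as the same, 41 moved, 14 passed newly, 31 no longer passed and 36 turned sign. For a tested log2FC, the same meant an unchanged direction and side of the threshold. For a count it meant a similar size, and for Bmp4 the same sign and a shift below its pooled SD. The cause was not tested. Bmp2 in Sox2-KD had no value with only 4 libraries, since the filter removed it. Depth limits Bmp2 and Gata3, which had under 15 counts in control.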
